A study of Mus musculus with 20 samples.

Results

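The transcriptome of the wild-type mouse zygote was compared with that of the wild-type MII oocyte, the mature egg held in metaphase of the second meiotic division until a sperm enters. The comparison rests on 4 libraries, 2 of zygotes and 2 of MII oocytes, of the 20 libraries in the series. Every gene with a mean of at least 1 FPKM in either group was included, which gave 9848 of 23309 gene symbols. FPKM counts sequenced fragments relative to the length of the transcript and to the depth of the library. At the edge of this rule, Lrrc73 was just inside with means of 0.885 FPKM in zygotes and 1.0 FPKM in MII oocytes, and Morn5 was just outside with 0.9997 FPKM in zygotes and 0.381 FPKM in MII oocytes.

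The series surveys mouse oocytes and early embryos with and without Btg4 or Erk. All cells came from ICR-strain mice, and zygotes and MII oocytes used here carry the wild-type label. Per the labels, females were 21 to 23 days old and were injected with PMSG and hCG, the hormones that drive follicle growth and ovulation, and those that gave embryos were also mated. Each library pooled 60 cells, and mRNA was purified before paired-end sequencing. The sources used here do not give the hours after hCG or mating, the sire or the number of females per pool. Wild-type GV oocytes (immature, held in the first meiotic prophase) and 2-cell embryos, and zygotes and MII oocytes labelled Btg4-/-, have 2 libraries each and are used for side values. Nothing in the labels ties the libraries of a group to different females, and p-values therefore reflect library-to-library spread that may be technical.

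As background, the growing oocyte stores mRNA and falls almost silent in transcription before it matures. MII arrest is kept by the Mos and MAPK cascade and by Emi2, which restrain the anaphase-promoting complex (APC/C), the ubiquitin ligase that destroys cyclin B and securin. The sperm's calcium signal breaks the arrest, the second meiotic division ends, pronuclei form and DNA is replicated. Maternal mRNAs are removed or given longer poly(A) tails and translated, and a first, minor wave of embryonic transcription begins in the zygote ahead of the main wave at the 2-cell stage.

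The estimated depth was 3910000 to 4080000 fragments in zygote libraries and 4240000 to 5070000 in MII libraries. Across genes on the log2 scale, Pearson r was 0.977 between the zygote libraries and 0.968 between the MII libraries, and it was 0.919 to 0.933 between a zygote and an MII library. The squared difference between libraries of 1 group was 3.76 times the counting error for zygotes and 5.77 times for MII oocytes. Rn45s, the ribosomal RNA precursor, took 12988 and 12307 FPKM in zygotes and 20984 and 16014 FPKM in MII oocytes, and its change did not pass the threshold (log2 change -0.54, limma adjusted p = 0.0762). FPKM values are shares of a library, so less RNA per cell and fewer cells in a pool cannot be told apart, nor can a loss of mRNA and a shorter poly(A) tail.

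More genes were higher than lower in zygotes. With limma on log2(FPKM + 1), over 12311 genes tested and with a Benjamini-Hochberg adjusted p below 0.05, 2521 genes were higher (20.5% of those tested) and 985 were lower (8.0%). Of these, 2504 and 977 belong to the 9848 genes described here. At least a 2-fold change was seen for 1547 genes higher (12.6%) and 509 genes lower (4.13%). The balance depends on the scaling. The median log2 change of all genes tested was 0.22 as deposited, 0.04 after median-of-ratios scaling and -0.002 after quantile normalization. Higher genes were 71.9% of the calls as deposited, 51.2% after median-of-ratios scaling (1548 higher, 1476 lower) and 51.8% after quantile normalization (1488 higher, 1384 lower). Without zygote library 2, 1406 genes were higher and 609 lower.

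**Figure D1:**
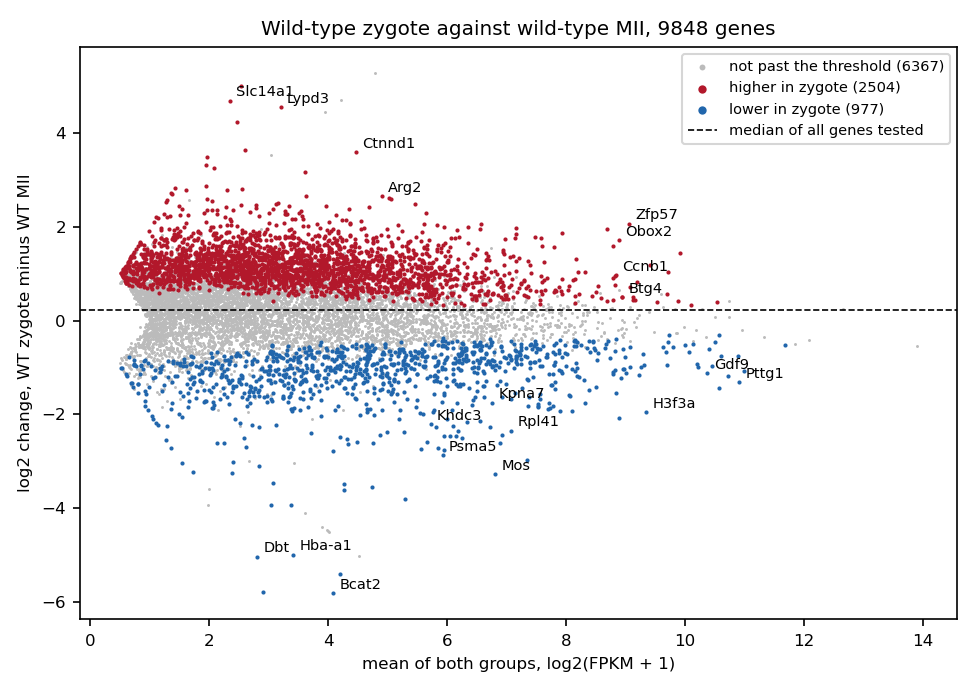
Log2 change of each of 9848 genes, zygote minus MII (vertical), against its mean level over both groups on the log2(FPKM + 1) scale (horizontal). Red points are 2504 genes higher and blue points 977 genes lower at the threshold, and the dashed line is the median of all genes tested, 0.22; most points lie above 0.

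The genes that fell had higher median levels at MII, and shorter transcripts, than the genes that rose. The 509 genes lower by at least 2-fold had a median of 8.62 FPKM in zygotes and 28 FPKM in MII oocytes, with 31.8 FPKM at GV and 15.4 FPKM in 2-cell embryos. The 1547 genes higher by at least 2-fold had a median of 11.7 FPKM in zygotes and 3.90 FPKM in MII oocytes, with 4.22 FPKM at GV and 6.40 FPKM in 2-cell embryos. Their median was highest in the zygote among the 4 wild-type stages. Median transcript length, from GENCODE M21, was 3331 bases for the genes that rose, 1753 bases for the genes that fell and 2949 bases for all 9848 genes. These medians describe sets chosen by the change itself and were not tested.

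Among the 15 genes with the highest log2 change, several were nearly silent in MII oocytes. Slc14a1, a urea transporter, had 24.6 and 25 FPKM in zygotes, against 0 and 0 FPKM in MII oocytes. It was listed at 0 at GV too and averaged 13.5 FPKM in 2-cell embryos, and its rise passed the threshold (limma adjusted p = 1.34e-06). Lypd3, a cell-surface protein of the Ly6 family, had 51.7 and 35.3 FPKM in zygotes, against 1.28 and 0.526 FPKM in MII oocytes (log2 change 4.55 ± 0.44 (SE), adjusted p = 1.81e-05). Slco4a1, an organic anion transporter, had 11.8 and 12.2 FPKM in zygotes, against 0.126 and 0.207 FPKM in MII oocytes (log2 change 3.48 ± 0.31 (SE), adjusted p = 1.06e-05). Both zygote libraries lay far above both MII libraries for these genes. In the MII library of the Erk experiment, Slc14a1 was listed at 0, while Lypd3 had 8.53 FPKM and Slco4a1 9.95 FPKM, below both zygote libraries. Ctnnd1, the adherens junction protein p120-catenin, had 74.8 and 76.6 FPKM in zygotes, against 5.24 and 5.52 FPKM in MII oocytes (log2 change 3.59 ± 0.23 (SE), adjusted p = 1.19e-06). Ndc80, which ties kinetochores to microtubules, had 26.8 and 32.9 FPKM in zygotes, against 4.55 and 3.22 FPKM in MII oocytes (log2 change 2.66 ± 0.37 (SE), adjusted p = 0.000264). Kdm2b, a histone H3 demethylase that recruits Polycomb complexes to CpG islands, had 74.6 and 81.4 FPKM in zygotes, against 14.7 and 9.77 FPKM in MII oocytes (log2 change 2.60 ± 0.35 (SE), adjusted p = 0.000204). The MII library of the Erk experiment, made and normalised separately, held 114 FPKM of Ctnnd1 and 81.2 FPKM of Ndc80, above both zygote libraries, and 20.4 FPKM of Kdm2b, below both.

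Arg2 and Atpbd4 were lower at MII than at GV or in the zygote. Arg2, mitochondrial arginase, had 81.5 and 66.2 FPKM in zygotes, against 10.7 and 11 FPKM in MII oocytes (log2 change 2.65 ± 0.14 (SE), adjusted p = 3.35e-07), with a GV mean of 132 FPKM. Atpbd4, an enzyme of diphthamide synthesis on elongation factor 2, had 21 and 20.0 FPKM in zygotes, against 0.783 and 0.659 FPKM in MII oocytes (log2 change 3.64 ± 0.37 (SE), adjusted p = 2.79e-05), with a GV mean of 8.60 FPKM. Rln3, the hormone relaxin 3, had 39.6 and 26.6 FPKM in zygotes, against 5.54 and 1.13 FPKM in MII oocytes (log2 change 3.17 ± 0.44 (SE), adjusted p = 0.00027). The zygote libraries agreed within a narrow range for Atpbd4 and less closely for Rln3. The Erk experiment's MII library held 51.8 FPKM of Rln3, above both zygote libraries, 5.999 FPKM of Atpbd4, below both, and listed Arg2 at 0. The zygote libraries disagreed widely for Atp6v0c, a subunit of the proton pump of acid organelles. It had 5.64 and 52.7 FPKM in zygotes, against 0.00142 and 0.0012 FPKM in MII oocytes (log2 change 4.24 ± 0.78 (SE), adjusted p = 0.00172), a call lost in the fit on the 4 libraries. Its mean was 73.1 FPKM at GV and 0.00189 FPKM in 2-cell embryos. In libraries labelled Btg4-/- it averaged 57.5 FPKM in zygotes and 56.5 FPKM in MII oocytes. The small nucleolar RNA Snora74a had 42.1 and 22.6 FPKM in zygotes, against 0 and 0 FPKM in MII oocytes (limma adjusted p = 0.0207). It is 196 bases long, and its call was lost without any 1 of the 4 libraries and with no filter on low genes. The others of the 15 were Gm13103, Gm10364, Slc9a3r1 and Gm12633, with log2 changes of 3.31, 3.24, 2.81 and 2.78.

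At the other end, a pair of enzymes of branched-chain amino acid breakdown fell the most among the protein-coding members of the 15 lowest. Bcat2 (chr7:52825523-52845080 in mm9), the mitochondrial aminotransferase of the first step, had 1.19 and 1.31 FPKM in zygotes, against 129 and 123 FPKM in MII oocytes (log2 change -5.81 ± 0.25 (SE), adjusted p = 2.08e-07). Dbt (chr3:116215997-116252899 in mm9), the core subunit of the dehydrogenase complex of the next step, had 0.121 and 0.313 FPKM in zygotes, against 34.7 and 43.2 FPKM in MII oocytes (log2 change -5.03 ± 0.29 (SE), adjusted p = 6.02e-07). For both genes MII was the high point in wild type, since GV means were 24.9 and 2.97 FPKM and 2-cell means 36.7 and 3.25 FPKM. The wild-type MII library of the Erk experiment held 2.63 FPKM of Bcat2 and 2.94 FPKM of Dbt, far below both MII libraries used here.

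Other genes among the 15 lowest were also high in the MII library of the Erk experiment. Mos (chr4:3797805-3799252 in mm9), the kinase that starts the MAPK cascade of MII arrest, had 41.4 and 28.9 FPKM in zygotes, against 333 and 355 FPKM in MII oocytes (log2 change -3.28 ± 0.22 (SE), adjusted p = 1.7e-06). Its mean was 1289.5 FPKM at GV and 3.37 FPKM in 2-cell embryos, so it declined at every stage, and the MII library of the Erk experiment held 919 FPKM. March7, a membrane-associated ubiquitin ligase, had 9.11 and 9.62 FPKM in zygotes, against 129 and 162 FPKM in MII oocytes (log2 change -3.81 ± 0.30 (SE), adjusted p = 3.93e-06). Cldn4, a tight junction protein, had 5.92 and 3.62 FPKM in zygotes, against 65.9 and 59.5 FPKM in MII oocytes (log2 change -3.49 ± 0.33 (SE), adjusted p = 1.5e-05). The Erk experiment's MII library held 115 FPKM of March7 and 52.5 FPKM of Cldn4, above every zygote library. Uqcr11, a small subunit of respiratory complex III, had 6.61 and 2.59 FPKM in zygotes, against 75.3 and 53.2 FPKM in MII oocytes (log2 change -3.62 ± 0.38 (SE), adjusted p = 3.65e-05), and Ndufa1 of complex I had 9.93 and 4.15 FPKM in zygotes, against 80.4 and 93.4 FPKM in MII oocytes (log2 change -3.55 ± 0.27 (SE), adjusted p = 3e-06).

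Tex19.2 and Ccnb1ip1 are germline genes. Tex19.2 had 1.42 and 1.89 FPKM in zygotes, against 35.7 and 43.5 FPKM in MII oocytes (log2 change -3.93 ± 0.21 (SE), adjusted p = 3.35e-07), and Ccnb1ip1, needed for meiotic crossovers, had 1.86 and 1.04 FPKM in zygotes, against 19.9 and 19.8 FPKM in MII oocytes (log2 change -3.10 ± 0.22 (SE), adjusted p = 2.06e-06). In the Erk experiment's MII library Tex19.2 was listed at 0 and Ccnb1ip1 at 0.0660 FPKM, below the zygote libraries. The small nuclear RNA Rnu12, 151 bases long, was listed at 0 in both zygote libraries and at 64.3 and 46.1 FPKM in MII oocytes (limma adjusted p = 0.0362). Its call was lost without any 1 of the 4 libraries, with the length correction, with no filter on low genes and with the other pseudocount. Rpl34-ps1 is a ribosomal protein pseudogene whose reads can be split with its parent, and its log2 change was -5.42. The remaining genes of the 15 were H2-Aa at -3.46, LOC100504703 at -3.26, and the haemoglobin genes Hba-a1 and Beta-s described with the blood markers.

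**Figure D2:**
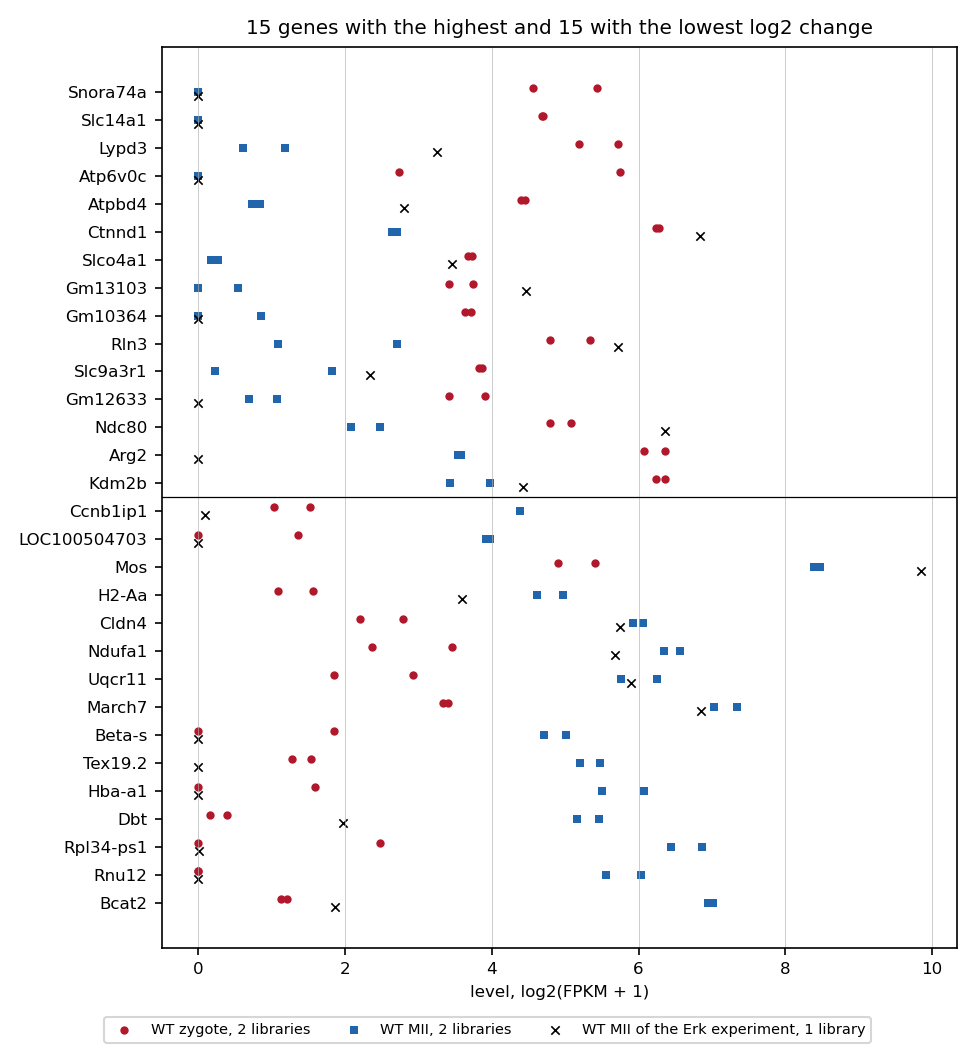
Levels on the log2(FPKM + 1) scale of the 15 genes with the highest and the 15 with the lowest log2 change among those past the threshold, with a group mean of at least 10 FPKM and no overlap between libraries. Red circles are zygote libraries, blue squares MII libraries and crosses the single wild-type MII library of the Erk experiment. That library lies above both zygote libraries for 8 of the 15 lower genes and below both for 11 of the 15 higher genes. The genes were chosen by the same zygote libraries, which favours these directions.

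The library of the Erk experiment entered no fit. Across the 1547 genes higher by at least 2-fold it lay below both zygote libraries for 75.9% of genes, and across the 509 genes lower by at least 2-fold it lay above both for 61.5%. Across all 9848 genes the same shares were 63.4% and 30.5%. Both sets were chosen by the same zygote libraries, so part of the excess over all genes was fixed by that choice. The Erk experiment's library was also lower, with a median of 4.06 FPKM over the 9848 genes against 7.90 FPKM for zygote means. Among the named genes past the threshold it lay above both zygote libraries for 18 of the 69 that rose and below both for 15 of the 58 that fell, which is against the direction of the change. The 18 include Ctnnd1, Rln3, Ndc80, Fbxo43, Ccnb1, Btg4, Cnot7, Plat, Orc1, Obox1, Obox2 and Nlrp5, and the 15 include Mapk3, Bmp15, Cd9 and Atp5c1. Experiment and group cannot be told apart in these values.

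Gene groups are given with the share of members that rose or fell, to be set beside 20.5% higher and 8.0% lower among all genes tested. In the circuit of MII arrest, Mos and Mapk3 fell while Fbxo43 and Ensa rose. Of 16 tested members, 4 rose (25%), 3 fell (18.8%) and 9 did not pass the threshold, with a median log2 change of 0.10 that turned to -0.16 after median-of-ratios scaling, -0.17 after quantile normalization and -0.05 with a length correction. Mapk3, which encodes the kinase ERK1, had 50.4 and 49.9 FPKM in zygotes, against 98.3 and 105 FPKM in MII oocytes (log2 change -1.01 ± 0.17 (SE), adjusted p = 0.000826). Fbxo43, which encodes the APC/C inhibitor Emi2, had 6.75 and 6.76 FPKM in zygotes, against 2.08 and 0.507 FPKM in MII oocytes (log2 change 1.85 ± 0.33 (SE), adjusted p = 0.00153). Ensa, an inhibitor of the phosphatase PP2A, had 16.9 and 12.7 FPKM in zygotes, against 6.40 and 4.67 FPKM in MII oocytes (log2 change 1.28 ± 0.24 (SE), adjusted p = 0.00177). Emi2 mRNA was low in these MII libraries, against 149 FPKM in the MII library of the Erk experiment.

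Cyclin B1, Aurka and Cdk1 were among the cell cycle genes that rose in zygotes. Of 16 tested members, 7 rose (43.8%), 2 fell (12.5%) and 7 did not pass the threshold, and the median was 0.22 (-0.06 after median-of-ratios scaling, where 6 rose and 3 fell). Ccnb1, the cyclin whose protein is destroyed at fertilization, had 651 and 619.5 FPKM in zygotes, against 304 and 345 FPKM in MII oocytes (log2 change 0.97 ± 0.11 (SE), adjusted p = 5.77e-05). The MII library of the Erk experiment held 973 FPKM, above both zygote libraries. Aurka, a spindle kinase, had 152 and 140.4 FPKM in zygotes, against 62.6 and 71.1 FPKM in MII oocytes (log2 change 1.12 ± 0.12 (SE), adjusted p = 4.42e-05). The groups did not overlap for either gene, and zygote levels were near the GV means of 653 and 162 FPKM. Cdc25a, the phosphatase that activates Cdk1, and Cdk1 itself had log2 changes of 1.25 and 1.41, with Cdk1 at only 9.19 and 8.38 FPKM in zygotes and 3.42 and 2.08 FPKM in MII oocytes.

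Securin moved the other way. Pttg1, which encodes securin, the guard of sister chromatid cohesion, had 1307 and 1128 FPKM in zygotes, against 3049 and 3022 FPKM in MII oocytes (log2 change -1.32 ± 0.21 (SE), adjusted p = 0.000636). Its GV and 2-cell means were 223 and 228 FPKM, so its mRNA peaked at MII. For the APC/C, securin and cohesin genes together, of 28 tested members, 13 rose (46.4%), 4 fell (14.3%) and 11 did not pass the threshold, with a median of 0.50. After median-of-ratios scaling 6 rose and 5 fell. Fzr1, which encodes the APC/C activator Cdh1 of the next interphase, had 20.3 and 16 FPKM in zygotes, against 7.71 and 6.86 FPKM in MII oocytes (log2 change 1.20 ± 0.22 (SE), adjusted p = 0.0017). Sgol2, the protector of meiotic cohesin, had 10.3 and 15.7 FPKM in zygotes, against 3.26 and 4.32 FPKM in MII oocytes (log2 change 1.53 ± 0.32 (SE), adjusted p = 0.00365), a call lost with a pseudocount of 0.1 and in the fit on the 4 libraries. Anapc11, the catalytic RING subunit of the APC/C, had 12.4 and 10.9 FPKM in zygotes, against 25.1 and 22.8 FPKM in MII oocytes (log2 change -0.98 ± 0.19 (SE), adjusted p = 0.00215).

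Genes of calcium signalling at egg activation were called about as often as all genes. Of 20 tested members, 5 rose (25%), 2 fell (10%) and 13 did not pass the threshold, beside 20.5% higher and 8.0% lower among all genes tested, with a median of 0.29. The regulatory subunit of calcineurin, Ppp3r1, had 145 and 133 FPKM in zygotes, against 244 and 254 FPKM in MII oocytes (log2 change -0.84 ± 0.13 (SE), adjusted p = 0.000519). The store-operated calcium channel Orai1 had 35.7 and 39.6 FPKM in zygotes, against 15.3 and 16.9 FPKM in MII oocytes (log2 change 1.18 ± 0.20 (SE), adjusted p = 0.000929), and the zinc importer Slc39a6 had 47.5 and 65.1 FPKM in zygotes, against 21.8 and 25.3 FPKM in MII oocytes (log2 change 1.21 ± 0.17 (SE), adjusted p = 0.000306).

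Among the few genes for sperm binding and its block, Astl, Zp3 and Cd9 fell and Folr4 rose. Of 7 tested members, 1 rose (14.3%), 3 fell (42.9%) and 3 did not pass the threshold, beside 20.5% higher and 8.0% lower among all genes tested, with a median of -0.46. Astl encodes ovastacin, the cortical granule protease that cleaves ZP2 after fertilization, and it had 139 and 104 FPKM in zygotes, against 448 and 469 FPKM in MII oocytes (log2 change -1.92 ± 0.18 (SE), adjusted p = 1.73e-05). Zp3, a zona pellucida glycoprotein, had 80.1 and 71.9 FPKM in zygotes, against 166 and 153 FPKM in MII oocytes (log2 change -1.06 ± 0.14 (SE), adjusted p = 0.000239), whereas Zp2 had 55.1 and 55.1 FPKM in zygotes, against 74.6 and 55.9 FPKM in MII oocytes and did not pass (limma adjusted p = 0.245). Cd9, the tetraspanin needed for gamete fusion, had 28.1 and 13.2 FPKM in zygotes, against 45.2 and 34.1 FPKM in MII oocytes (log2 change -0.98 ± 0.29 (SE), adjusted p = 0.023), and its call was lost without MII library 1 or zygote library 2, with no filter on low genes and in the fit on the 4 libraries. Folr4, now called Juno, is the egg's receptor for sperm Izumo1, and it alone rose, with 152 and 134 FPKM in zygotes, against 42 and 47.6 FPKM in MII oocytes (log2 change 1.65 ± 0.17 (SE), adjusted p = 2.43e-05).

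Of the oocyte's growth factors, Gdf9 and Bmp15 fell and Bmp6 rose. Gdf9 and Bmp15 encode the TGF-beta family signals that the oocyte sends to cumulus cells. Gdf9 had 963 and 836 FPKM in zygotes, against 1894 and 2023 FPKM in MII oocytes (log2 change -1.12 ± 0.12 (SE), adjusted p = 3.55e-05), and Bmp15 had 911 and 803 FPKM in zygotes, against 1594 and 1648 FPKM in MII oocytes (log2 change -0.92 ± 0.13 (SE), adjusted p = 0.000315). Of 9 tested genes for secreted or surface oocyte signals these were the only members lower as deposited, 1 rose and 6 did not pass, and the median of 0.08 changed sign under median-of-ratios and quantile scaling. The member that rose was Bmp6, with 62 and 68.3 FPKM in zygotes, against 42.6 and 46.8 FPKM in MII oocytes (log2 change 0.53 ± 0.16 (SE), adjusted p = 0.0257), a call lost in 8 of 15 alternatives. Oosp1, a secreted oocyte protein of unknown role, had 1694 and 1309.5 FPKM in zygotes, against 1418 and 1409.7 FPKM in MII oocytes, where the groups overlapped (limma adjusted p = 0.735).

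Maternal effect genes, whose products the embryo needs before its own genome is active, moved in both directions. Of 36 tested members, 14 rose (38.9%), 4 fell (11.1%) and 18 did not pass the threshold, with a median of 0.40; 10 rose and 7 fell after median-of-ratios scaling. Zfp57 (chr17:37138108-37147674 in mm9), the zinc finger protein that keeps methylation at imprinted loci, had 1052 and 1120.3 FPKM in zygotes, against 259.6 and 256 FPKM in MII oocytes (log2 change 2.07 ± 0.11 (SE), adjusted p = 3.35e-07). At GV and in 2-cell embryos it averaged 195 and 86.5 FPKM, so it peaked in the zygote. Nlrp5, also called Mater, a scaffold of the subcortical maternal complex, had 89 and 125 FPKM in zygotes, against 40.5 and 39.2 FPKM in MII oocytes (log2 change 1.38 ± 0.29 (SE), adjusted p = 0.00399). Ooep of the same complex had 355 and 307 FPKM in zygotes, against 184 and 172 FPKM in MII oocytes (log2 change 0.89 ± 0.12 (SE), adjusted p = 0.000275). Its partner Khdc3, also called Filia, had 27.8 and 19.7 FPKM in zygotes, against 105 and 119 FPKM in MII oocytes (log2 change -2.21 ± 0.18 (SE), adjusted p = 5.19e-06). Members of the one complex thus differed in sign.

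Dppa3, also called Stella, which protects the maternal genome from demethylation, had 1508 and 1315 FPKM in zygotes, against 2792 and 3119 FPKM in MII oocytes (log2 change -1.07 ± 0.10 (SE), adjusted p = 1.4e-05). Npm2, a histone chaperone of sperm chromatin, had 509 and 673 FPKM in zygotes, against 317 and 372 FPKM in MII oocytes (log2 change 0.77 ± 0.16 (SE), adjusted p = 0.00358). Dppa3 was the more abundant mRNA per length and was lower in both zygote libraries, while Npm2 was higher in both. Zar1, a maternal mRNA-binding protein, had 1599 and 1345 FPKM in zygotes, against 2414 and 2520.2 FPKM in MII oocytes (log2 change -0.75 ± 0.16 (SE), adjusted p = 0.00429), a call lost under quantile normalization and in the fit on the 4 libraries. Nlrp9b had a log2 change of 1.43, but reads of near-identical Nlrp9 copies can be split between them. Pou5f1 had a log2 change of 0.45. Its call was lost after median-of-ratios scaling, with no variance trend, in the fit on the 4 libraries and without MII or zygote library 1.

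Among genes of mRNA decay and translational control, a pair of poly(A)-binding proteins moved in opposite directions. Pabpn1, the nuclear poly(A)-binding protein, had 278 and 261 FPKM in zygotes, against 74.7 and 73.7 FPKM in MII oocytes (log2 change 1.85 ± 0.19 (SE), adjusted p = 2.96e-05). Its oocyte paralogue Pabpn1l had 197 and 193 FPKM in zygotes, against 449 and 457 FPKM in MII oocytes (log2 change -1.21 ± 0.15 (SE), adjusted p = 0.000117). The pair therefore stood in opposite order at the stages, with Pabpn1 the higher in zygotes and Pabpn1l the higher in MII oocytes, per length. Ybx2, also called Msy2, which coats and stores oocyte mRNA, had 228 and 212 FPKM in zygotes, against 82 and 100.2 FPKM in MII oocytes (log2 change 1.27 ± 0.17 (SE), adjusted p = 0.000173), and Lsm14b, a storage granule protein, had 313 and 319 FPKM in zygotes, against 682 and 797 FPKM in MII oocytes (log2 change -1.22 ± 0.14 (SE), adjusted p = 6.76e-05). Of 43 tested members, 14 rose (32.6%), 2 fell (4.65%) and 27 did not pass the threshold in this group, beside 20.5% higher and 8.0% lower among all genes tested, with a median of 0.44. After median-of-ratios scaling 7 rose and 5 fell, with a median of 0.18, and after quantile normalization 9 rose and 5 fell.

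The CCR4-NOT deadenylase and its BTG/TOB adaptors shorten poly(A) tails. Of 18 tested members, 6 rose (33.3%), 1 fell (5.56%) and 11 did not pass the threshold, with a median of 0.38; after median-of-ratios scaling 2 rose and 3 fell. Btg4, the adaptor that brings the deadenylase to maternal mRNA, had 610.3 and 559 FPKM in zygotes, against 415 and 406 FPKM in MII oocytes (log2 change 0.51 ± 0.12 (SE), adjusted p = 0.00642). The catalytic subunit Cnot7 had 107 and 114 FPKM in zygotes, against 70.7 and 81.6 FPKM in MII oocytes (log2 change 0.53 ± 0.12 (SE), adjusted p = 0.00636). Both calls were lost after median-of-ratios scaling and in the fit on the 4 libraries, and that of Cnot7 also without MII library 1. Cnot6l, the other main deadenylase of the oocyte, had 271 and 308 FPKM in zygotes, against 249 and 266 FPKM in MII oocytes and did not pass (limma adjusted p = 0.505). Rqcd1, the CNOT9 subunit, had 16.6 and 16.8 FPKM in zygotes, against 8.47 and 7.91 FPKM in MII oocytes (log2 change 0.95 ± 0.16 (SE), adjusted p = 0.000929). Btg1, another adaptor, was the member that fell, with 2.17 and 1.45 FPKM in zygotes, against 8.26 and 7.12 FPKM in MII oocytes (log2 change -1.64 ± 0.26 (SE), adjusted p = 0.000614).

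Dormant maternal mRNAs are stored with short tails and polyadenylated through U-rich elements near their 3′ end. Of 23 tested members, 9 rose (39.1%), 3 fell (13%) and 11 did not pass the threshold, with a median of 0.26 and of 0.00 after median-of-ratios scaling, where 3 rose and 4 fell. Of the 12 members past the threshold, 6 hold a cytoplasmic polyadenylation element, TTTTAT or TTTTAAT on the mRNA strand, in the last 100 bases of the GENCODE M21 transcript (GRCm38). A window of 30 bases around each of these is shown with the element and any AATAAA polyadenylation signal in capitals, since they are the candidate sites on the mRNAs that changed.
Plat: tttataTTTTAATctattttagtttttact
Btg4: atccctTTTTATgtctttttaaaagtttga
Cnot7: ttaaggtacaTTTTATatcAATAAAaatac
Bub1b: tgtgtaTTTTATAATAAAatagtttttgtt
Wee2: tgtaAATAAAgaTTTTATcttatccaaaga
Orc6: tcaagcccAATAAAtgttatTTTTATatgc

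These mRNAs did not move as one. Plat, the tissue plasminogen activator whose mRNA was a founding example of dormancy, had 59.3 and 64.9 FPKM in zygotes, against 27.5 and 27.7 FPKM in MII oocytes (log2 change 1.14 ± 0.17 (SE), adjusted p = 0.000498). The meiotic kinase Wee2 and the origin recognition subunit Orc6 had log2 changes of 0.74 and 0.56, while the checkpoint kinase Bub1b had -0.44. The 6 members past the threshold with neither element in that window were Mos, Ccnb1, Tpx2, Hprt, Mad2l1 and Dcp2, with changes from -3.28 for Mos to 1.13 for Tpx2. The element was present in 16.5% of genes higher by at least 2-fold, 20.7% of genes lower by at least 2-fold and 20.2% of the 9020 genes described here that have a 3′ end of 100 bases. A match in this window is a description of the letters and not evidence of a working site.

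**Figure D3:**
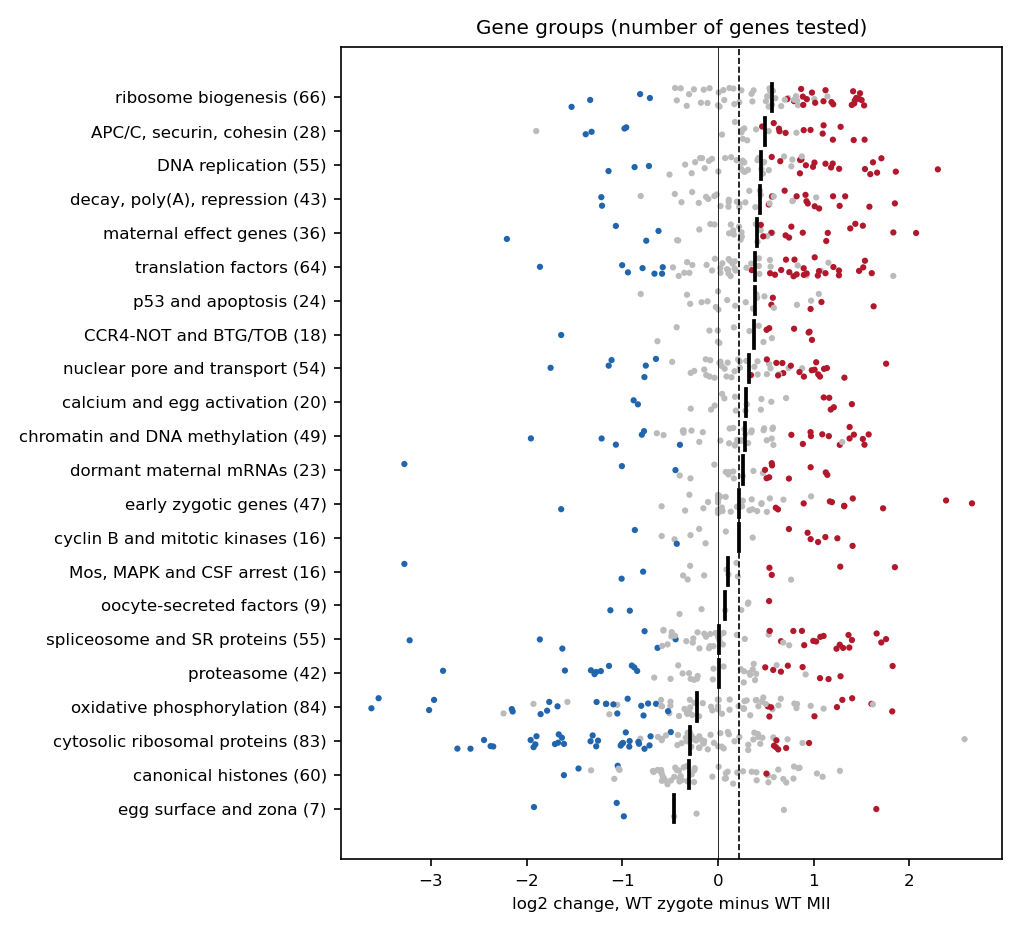
Log2 change, zygote minus MII, of each tested member of 22 gene groups, with group sizes in parentheses. Red and blue points passed the threshold, grey points did not, black bars are group medians and the dashed line is the median of all genes tested; ribosome biogenesis has the highest median, 0.57, and egg surface genes the lowest, -0.46.

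Ribosomal protein mRNAs fell more often than they rose. Of 83 tested members, 6 rose (7.23%), 30 fell (36.1%) and 47 did not pass the threshold, beside 20.5% higher and 8.0% lower among all genes tested, with a median of -0.29; the median moved to -0.03 with a correction for transcript length, where 13 rose and 26 fell. Rpl41 had 61.8 and 55.7 FPKM in zygotes, against 312 and 294 FPKM in MII oocytes (log2 change -2.35 ± 0.14 (SE), adjusted p = 9.03e-07), and Rps27l had 18.4 and 20.8 FPKM in zygotes, against 117 and 128 FPKM in MII oocytes (log2 change -2.59 ± 0.23 (SE), adjusted p = 1.06e-05). Rpl32 had 95 and 91.3 FPKM in zygotes, against 308 and 274 FPKM in MII oocytes (log2 change -1.63 ± 0.12 (SE), adjusted p = 3e-06). All zygote libraries lay below all MII libraries for these genes, and reads shared with processed pseudogenes make single values uncertain.

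Some genes that build ribosomes and run translation rose. For ribosome biogenesis, of 66 tested members, 21 rose (31.8%), 4 fell (6.06%) and 41 did not pass the threshold, with a median of 0.57 and of 0.33 after median-of-ratios scaling, where 14 rose and 6 fell. Ddx18, a nucleolar helicase, had 157 and 193 FPKM in zygotes, against 84.7 and 90.4 FPKM in MII oocytes (log2 change 0.98 ± 0.17 (SE), adjusted p = 0.00135), and Rrn3, which recruits RNA polymerase I, had 25 and 26.3 FPKM in zygotes, against 13.8 and 13.4 FPKM in MII oocytes (log2 change 0.87 ± 0.16 (SE), adjusted p = 0.00177). Nop10, a short subunit of pseudouridylating particles, fell, with 26.6 and 16.9 FPKM in zygotes, against 76.1 and 52.4 FPKM in MII oocytes (log2 change -1.53 ± 0.27 (SE), adjusted p = 0.0012). For translation factors, of 64 tested members, 23 rose (35.9%), 7 fell (10.9%) and 34 did not pass the threshold, beside 20.5% higher and 8.0% lower among all genes tested, with a median of 0.39. After median-of-ratios scaling 15 rose and 11 fell, with a median of 0.12, and after quantile normalization 17 rose and 9 fell. Eef2, the elongation factor of translocation, had 69.1 and 63.7 FPKM in zygotes, against 28.7 and 17.7 FPKM in MII oocytes (log2 change 1.52 ± 0.18 (SE), adjusted p = 8.33e-05), and Eif2s1, the alpha subunit of initiation factor 2, had 35.4 and 34.6 FPKM in zygotes, against 13 and 11 FPKM in MII oocytes (log2 change 1.47 ± 0.17 (SE), adjusted p = 6.55e-05). Eif5a fell, with 659.8 and 538 FPKM in zygotes, against 1068 and 1227 FPKM in MII oocytes (log2 change -0.94 ± 0.11 (SE), adjusted p = 9.2e-05).

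Nuclear genes for oxidative phosphorylation fell more often than they rose as deposited. Of 84 tested members, 9 rose (10.7%), 21 fell (25%) and 54 did not pass the threshold, beside 20.5% higher and 8.0% lower among all genes tested, with a median of -0.22, which turned to 0.10 with a correction for transcript length, where 18 rose and 17 fell. Cox6c, a subunit of cytochrome oxidase, had 106 and 90.9 FPKM in zygotes, against 357 and 324 FPKM in MII oocytes (log2 change -1.79 ± 0.13 (SE), adjusted p = 2.06e-06). Ndufb8 of complex I had 39.1 and 35.4 FPKM in zygotes, against 173 and 165 FPKM in MII oocytes (log2 change -2.15 ± 0.15 (SE), adjusted p = 2.06e-06), and Atp5c1, the gamma subunit of ATP synthase, had 24 and 20.5 FPKM in zygotes, against 79.6 and 86.3 FPKM in MII oocytes (log2 change -1.85 ± 0.13 (SE), adjusted p = 2.06e-06). The proteasome split, since of 42 tested members, 9 rose (21.4%), 10 fell (23.8%) and 23 did not pass the threshold, with a median of 0.01 that was -0.14 after median-of-ratios scaling and -0.04 after quantile normalization. Psma5, an alpha ring subunit of the core particle, had 24.8 and 18.3 FPKM in zygotes, against 160.2 and 164 FPKM in MII oocytes (log2 change -2.87 ± 0.24 (SE), adjusted p = 6.96e-06), and Psmb3 of the beta ring had 163 and 143 FPKM in zygotes, against 449.8 and 479 FPKM in MII oocytes (log2 change -1.60 ± 0.19 (SE), adjusted p = 7.22e-05). Psmd6, of the regulatory particle, had 44.3 and 46.7 FPKM in zygotes, against 10.4 and 14.2 FPKM in MII oocytes (log2 change 1.82 ± 0.19 (SE), adjusted p = 3.68e-05).

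DNA replication genes, which serve the first S phase at this stage, included Orc1, Mcm5, Pcna and Top1 among those that rose. Of 55 tested members, 19 rose (34.5%), 3 fell (5.45%) and 33 did not pass the threshold, beside 20.5% higher and 8.0% lower among all genes tested, with a median of 0.45 beside 0.22 for all genes tested. After median-of-ratios scaling 14 rose and 5 fell, with a median of 0.21. Orc1, the subunit of the origin recognition complex that loads in G1, had 23.7 and 24.5 FPKM in zygotes, against 4.59 and 3.67 FPKM in MII oocytes (log2 change 2.30 ± 0.22 (SE), adjusted p = 1.99e-05). Mcm5 of the replicative helicase had 52.2 and 42.6 FPKM in zygotes, against 21.1 and 17.2 FPKM in MII oocytes (log2 change 1.27 ± 0.14 (SE), adjusted p = 5.63e-05), and Pcna, the polymerase clamp, had 390.1 and 357 FPKM in zygotes, against 192 and 216 FPKM in MII oocytes (log2 change 0.87 ± 0.11 (SE), adjusted p = 0.00012). Top1, which relaxes supercoils ahead of the fork, had 249 and 255 FPKM in zygotes, against 103 and 119 FPKM in MII oocytes (log2 change 1.18 ± 0.17 (SE), adjusted p = 0.000368), after a GV mean of 7.09 FPKM.

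Chromatin genes were called at shares near those of all genes. Of 49 tested members, 13 rose (26.5%), 6 fell (12.2%) and 30 did not pass the threshold, beside 20.5% higher and 8.0% lower among all genes tested, with a median of 0.29 and of 0.00 after median-of-ratios scaling, where 10 rose and 9 fell. H3f3a, which encodes the replacement histone H3.3 laid onto the paternal genome, had 335 and 324 FPKM in zygotes, against 1254 and 1307 FPKM in MII oocytes (log2 change -1.95 ± 0.09 (SE), adjusted p = 2.28e-07). Eed, a Polycomb subunit, had 94.4 and 88.4 FPKM in zygotes, against 43.6 and 37.4 FPKM in MII oocytes (log2 change 1.16 ± 0.13 (SE), adjusted p = 7.54e-05), and Kdm4a, a demethylase of H3 lysine 9 and lysine 36, had 55 and 61.3 FPKM in zygotes, against 21.6 and 22 FPKM in MII oocytes (log2 change 1.37 ± 0.24 (SE), adjusted p = 0.00121). H1foo, the oocyte linker histone, had 115 and 100.2 FPKM in zygotes, against 175 and 199.8 FPKM in MII oocytes (log2 change -0.80 ± 0.20 (SE), adjusted p = 0.0109), a call lost without MII or zygote library 2 and in the fit on the 4 libraries. Canonical histone mRNAs lack a poly(A) tail in most cells and are poorly captured by mRNA purification. Of 60 tested members, 1 rose (1.67%), 3 fell (5%) and 56 did not pass the threshold, with a median of -0.30 that turned to 0.09 with a correction for transcript length. Hist1h4h had 3.93 and 4.84 FPKM in zygotes, against 15 and 15.8 FPKM in MII oocytes (log2 change -1.61 ± 0.29 (SE), adjusted p = 0.00145), and near-identical copies make its value uncertain.

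Importins and splicing factors changed in both directions. Kpna7, an importin alpha of the oocyte and early embryo, had 58.1 and 57.4 FPKM in zygotes, against 193 and 199.8 FPKM in MII oocytes (log2 change -1.75 ± 0.10 (SE), adjusted p = 6.02e-07). Kpna3, a broadly expressed importin alpha, had 70.8 and 77.8 FPKM in zygotes, against 31.6 and 34.8 FPKM in MII oocytes (log2 change 1.14 ± 0.21 (SE), adjusted p = 0.00172), and Ranbp3, an export cofactor, had 65.2 and 65.3 FPKM in zygotes, against 19.4 and 17.9 FPKM in MII oocytes (log2 change 1.76 ± 0.15 (SE), adjusted p = 6.5e-06). Among nuclear pore and transport genes, of 54 tested members, 18 rose (33.3%), 6 fell (11.1%) and 30 did not pass the threshold, with a median of 0.32; after median-of-ratios scaling 7 rose and 6 fell. Among spliceosome and SR genes, of 55 tested members, 18 rose (32.7%), 6 fell (10.9%) and 31 did not pass the threshold, with a median of 0.01 that was -0.23 after median-of-ratios scaling, where 14 rose and 14 fell, and -0.08 after quantile normalization. Sf3b5, a small subunit of the U2 particle, had 129.6 and 92.6 FPKM in zygotes, against 390.4 and 411 FPKM in MII oocytes (log2 change -1.86 ± 0.22 (SE), adjusted p = 9.06e-05), and its partner Sf3b3 had 33.1 and 33 FPKM in zygotes, against 14 and 12.2 FPKM in MII oocytes (log2 change 1.27 ± 0.18 (SE), adjusted p = 0.000334).

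Genes of early embryonic transcription rose about as often as other genes. Of 47 tested members, 11 rose (23.4%), 1 fell (2.13%) and 35 did not pass the threshold. The median was 0.22, equal to that of all genes at this rounding, and 23.4% rose, beside 20.5% of all genes tested. Obox2, an oocyte and embryo homeobox gene, had 889.7 and 821 FPKM in zygotes, against 238 and 280.0 FPKM in MII oocytes (log2 change 1.72 ± 0.15 (SE), adjusted p = 7.96e-06), and Obox1 had 438 and 465 FPKM in zygotes, against 174 and 187 FPKM in MII oocytes (log2 change 1.32 ± 0.12 (SE), adjusted p = 1.24e-05). Both were already abundant at GV, with means of 1240.0 and 1034 FPKM, and their family copies can share reads. Eif1a, an early embryonic translation factor gene, was below 1 FPKM and outside the 9848 genes, with 0 and 0.362 FPKM in zygotes, against 0.611 and 0.279 FPKM in MII oocytes, and averaged 12.5 FPKM in 2-cell embryos. Of 24 tested p53 and apoptosis genes, 5 rose (20.8%) and 0 fell in limma, beside 20.5% higher and 8.0% lower among all genes tested. The share that rose was near that of all genes, and 0 were lower at an unadjusted p below 0.05. After median-of-ratios scaling 1 rose and 0 fell, and after quantile normalization 4 rose and 1 fell. Casp9, the initiator caspase, had 3.98 and 4.76 FPKM in zygotes, against 1.03 and 0.486 FPKM in MII oocytes (log2 change 1.63 ± 0.28 (SE), adjusted p = 0.00118). Birc5, which encodes survivin, had a log2 change of 0.57, a call lost after median-of-ratios scaling and in the fit on the 4 libraries.

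**Figure D4:**
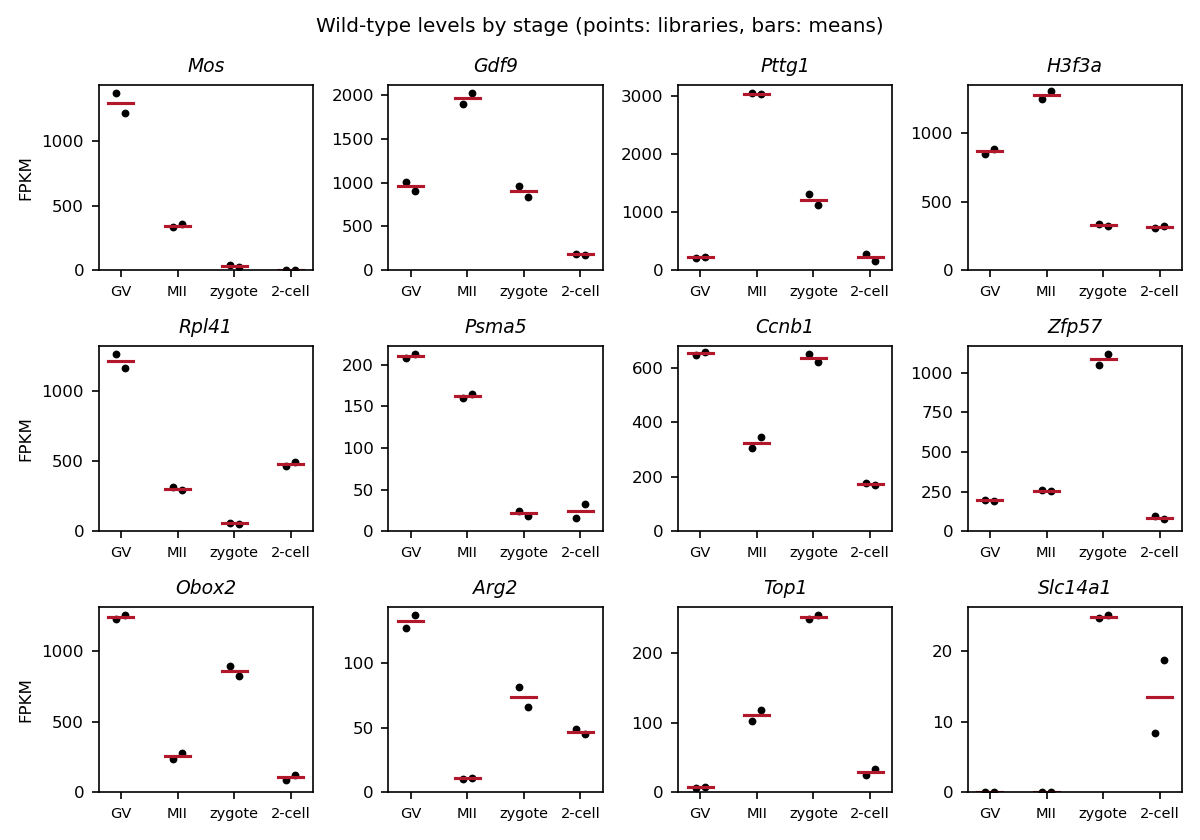
FPKM of 12 genes in wild-type GV oocytes, MII oocytes, zygotes and 2-cell embryos; points are libraries and red bars are means of 2. Mos declines at every stage, Gdf9 and Pttg1 peak at MII, Zfp57 and Top1 peak in the zygote, and Ccnb1, Obox2 and Arg2 are low at MII and higher in the zygote.

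Oocyte identity was clear in both groups. Of 18 oocyte markers, 17 averaged at least 1 FPKM in zygotes and in MII oocytes, and Sohlh1 was listed at 0 in all 4 libraries. Their summed level was 6705 to 7475 FPKM in zygotes and 9215 to 9561 FPKM in MII oocytes. Granulosa and cumulus markers summed to 10.3 to 11.8 FPKM in zygotes and 9.21 to 16 FPKM in MII oocytes, with Foxl2, Fshr, Lhcgr and Amh at or near 0 and Cyp19a1, the aromatase, at 3.70 and 3.39 FPKM in zygotes and 4.19 and 3.24 FPKM in MII oocytes. Of 13 tested members 1 rose and 2 fell. Inha, the inhibin alpha subunit, had 0 and 0 FPKM in zygotes, against 2.46 and 0.834 FPKM in MII oocytes, and Ptx3, a matrix protein of the cumulus, had 0 and 0 FPKM in zygotes, against 1.38 and 0.697 FPKM in MII oocytes (limma adjusted p = 0.00787 and 0.00155). Both calls were lost in the fit on the 4 libraries, and that of Inha also without MII library 1. Ptx3 was also listed at 0 in wild-type GV oocytes and 2-cell embryos and in zygotes and MII oocytes labelled Btg4-/-. Groups listed at 0 lower the shared estimate of spread behind its p-value. Nr5a2, a nuclear receptor, had 5.53 and 6.54 FPKM in zygotes, against 3.22 and 2.35 FPKM in MII oocytes (log2 change 0.90 ± 0.30 (SE), adjusted p = 0.0402), a call lost in 10 of 15 alternatives. Oviduct markers summed to 51.3 to 57.5 FPKM in zygotes and 33.2 to 34.4 FPKM in MII oocytes, mostly from Cdh1 (E-cadherin), which oocytes also express. Cdh1 had 45.6 and 52.2 FPKM in zygotes, against 27.2 and 26.8 FPKM in MII oocytes (log2 change 0.83 ± 0.20 (SE), adjusted p = 0.00854), a call lost after median-of-ratios scaling and without zygote library 2. Esr1, the oestrogen receptor alpha, had 4.75 and 5.21 FPKM in zygotes, against 5.50 and 7.59 FPKM in MII oocytes and did not pass (limma adjusted p = 0.516), while Ovgp1, Pax8 and Foxj1 were listed at 0 throughout.

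Sperm markers differed between the groups at low levels, and blood genes differed too, with Hba-a1 at 66.1 and 44.5 FPKM in MII oocytes. Of 23 sperm markers, 19 were listed at 0 in both zygote libraries, among them Prm1 and Tnp1. Prm2, a sperm protamine, had 6.99 and 4.38 FPKM in zygotes, against 0.911 and 0 FPKM in MII oocytes (log2 change 2.25 ± 0.56 (SE), adjusted p = 0.00963). Its call was lost without MII library 2 or zygote library 1, with a pseudocount of 0.1 and in the fit on the 4 libraries. Unfertilized cells of other groups held Prm2 too, at 1.90 and 3.84 FPKM in wild-type GV oocytes and 4.38 and 5.10 FPKM in MII oocytes labelled Btg4-/-. Odf2, which centrosomes also use, had 6.74 and 9.54 FPKM in zygotes, against 3.20 and 4.64 FPKM in MII oocytes (log2 change 0.89 ± 0.28 (SE), adjusted p = 0.0286), a call lost in 6 of 15 alternatives, among them median-of-ratios scaling and quantile normalization. Sperm markers summed to 14.3 to 16.9 FPKM in zygotes and 6.05 to 6.12 FPKM in MII oocytes. Hba-a1, alpha globin, had 2.01 and 0 FPKM in zygotes, against 66.1 and 44.5 FPKM in MII oocytes (log2 change -4.99 ± 0.47 (SE), adjusted p = 1.61e-05), and Beta-s, a beta globin, had 2.62 and 0 FPKM in zygotes, against 31.1 and 25.1 FPKM in MII oocytes (log2 change -3.93 ± 0.50 (SE), adjusted p = 0.000153). The calls of both globins were lost in the fit on the 4 libraries. S100a8, a neutrophil protein, had 7.11 and 4.26 FPKM in zygotes, against 0 and 0 FPKM in MII oocytes, and S100a9 had 4.72 and 7.75 FPKM in zygotes, against 0 and 0 FPKM in MII oocytes (limma adjusted p = 3e-06 and 0.000765). S100a8 was also listed at 0 in wild-type GV oocytes and 2-cell embryos and in zygotes and MII oocytes labelled Btg4-/-. Groups listed at 0 lower the shared estimate of spread, so its p-value does not measure the spread between zygote libraries alone. Blood markers summed to 12.2 to 14.5 FPKM in zygotes and 50.3 to 85.0 FPKM in MII oocytes, with Ptprc and Slc4a1 listed at 0 in all 4 libraries. Beta-s is not part of these sums. The part of blood or cumulus cells in H2-Aa and other changes was not tested.

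The libraries labelled Btg4-/- hold the same step. Btg4 had 139 and 164 FPKM in zygotes labelled Btg4-/-, against 172 and 191 FPKM in MII oocytes labelled Btg4-/-, so reads at the locus were not absent there. The wild-type means were higher, 585 FPKM in zygotes and 411 FPKM in MII oocytes. Values per locus cannot tell an intact transcript from part of one. In these libraries 1271 genes were higher in zygotes (10.3%) and 662 lower (5.38%). A test of the difference between the genotypes' changes passed for 1503 genes (12.2%). Of the 1547 genes higher by at least 2-fold in wild type, 354 rose and 37 fell in libraries labelled Btg4-/-, with a median log2 change of 0.37. Of the 509 genes lower by at least 2-fold, 113 fell and 28 rose there, with a median of -0.35. These genes were chosen for a large wild-type change, and no test of these medians is given.

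Named genes differed in how far they moved in libraries labelled Btg4-/-. Mos had 276 and 261 FPKM in zygotes labelled Btg4-/-, against 241 and 227 FPKM in MII oocytes labelled Btg4-/- (difference 3.47 ± 0.31 (SE), adjusted p = 3.39e-05). Gdf9 had 2279.7 and 2054 FPKM in zygotes labelled Btg4-/-, against 941 and 838 FPKM in MII oocytes labelled Btg4-/-, a change of opposite sign (difference 2.41 ± 0.17 (SE), adjusted p = 6.48e-06). Pabpn1l had 212 and 191 FPKM in zygotes labelled Btg4-/-, against 48.5 and 64.8 FPKM in MII oocytes labelled Btg4-/- (difference 3.04 ± 0.21 (SE), adjusted p = 6.48e-06), and Ooep, which rose in wild type, had 342 and 339 FPKM in zygotes labelled Btg4-/-, against 1059 and 1030.1 FPKM in MII oocytes labelled Btg4-/- (difference -2.50 ± 0.17 (SE), adjusted p = 6.48e-06). H3f3a had 1102 and 1097 FPKM in zygotes labelled Btg4-/-, against 1311 and 1301 FPKM in MII oocytes labelled Btg4-/- (difference 1.71 ± 0.13 (SE), adjusted p = 8.17e-06). For Rpl41 the levels were 282 and 219 FPKM in zygotes labelled Btg4-/-, against 848 and 823 FPKM in MII oocytes labelled Btg4-/-, and the difference did not pass the threshold (difference 0.60 ± 0.20 (SE), adjusted p = 0.0774). Of the 15 genes with the lowest wild-type change, 0 passed in limma between zygotes and MII oocytes labelled Btg4-/-, with changes from -1.15 to 0.76 and 4 at an unadjusted p below 0.05. Of the 15 genes with the highest wild-type change, 4 passed there, with changes of 1.15 for Slc14a1, 1.76 for Ctnnd1, 2.03 for Kdm2b and -2.05 for Atpbd4. The difference between genotypes passed for 12 of the highest and 13 of the lowest genes, which were chosen for their wild-type change.

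**Figure D5:**
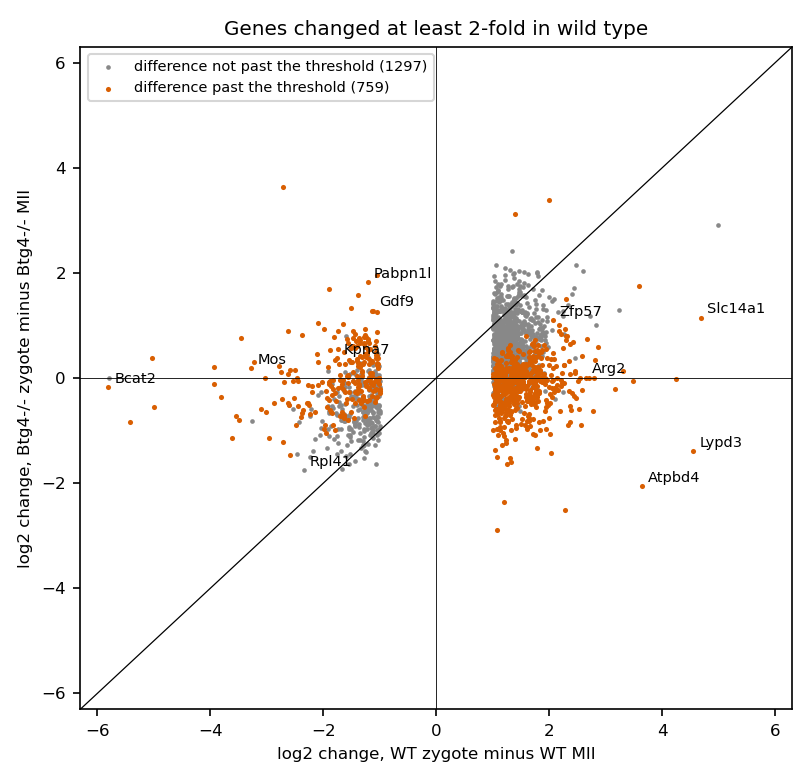
Log2 change, zygote minus MII, in libraries labelled Btg4-/- (vertical) against that in wild type (horizontal), for the 2056 genes changed at least 2-fold in wild type. Orange points are 759 genes whose changes differed between genotypes at the threshold and grey points 1297 that did not pass; the diagonal marks equal changes, and 1365 of the points lie between it and 0 on the vertical axis.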

How the data were processed

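Expression was measured by RNA-seq in pools of oocytes and embryos. The authors deposited FPKM per locus, with an interval around each estimate and mm9 coordinates, per the file headers. Per the submitters' processing notes, CASAVA 1.8, TopHat and Cufflinks were used; the sources used here give no other version and no annotation release. FPKM depends on transcript length and on the share of other RNAs. Loci with the same symbol were summed (260 symbols). Depth was estimated from the deposited intervals, which cover counting error only.

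Tests used limma 3.58.1 in R 4.3.3 on log2(FPKM + 1), with 8 group means over the 16 libraries of the Btg4 experiment, so that all share 1 estimate of spread (8 residual degrees of freedom), and a variance trend. Genes with a mean of at least 1 FPKM in any of the 8 groups were tested (12311), two-sided, with Benjamini-Hochberg adjustment and a threshold of 0.05. Changes on this scale understate those of low genes. The 175 symbols marked LOWDATA were kept. The procedure was tested on simulated data.

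Named genes were, with no overlap between libraries and a higher mean of at least 10 FPKM, the 15 highest and 15 lowest log2 changes, then up to 4 members per gene group by adjusted p, markers at 1 FPKM, and a short fixed list; some of these are not reported here. Tpx2, Wee2, Orc6, Bub1b, Hprt, Mad2l1 and Dcp2 were named for their 3′ ends after their values were seen. Groups came from sample titles. The members and lists were chosen with earlier results of these data known. Alternatives were another pseudocount (0.1), filters, scalings, a length correction, a replicate block, the 4 libraries alone and leaving out each library.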

Additional observations from a re-analysis of the deposited data

Results flagged for a closer look

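For 77 of 117 named genes, the log2 change from MII to zygote differed between the libraries labelled Btg4-/- and wild type (limma, adjusted p below 0.05). The difference is the change in libraries labelled Btg4-/- minus the change in wild type. It was below 0 for 37 genes and above 0 for 40. The named genes were mostly chosen for a large or clear wild-type change, and the background for all genes tested is 12.2%. No cause was tested.

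Among the 15 highest genes, the difference was -3.54 for Slc14a1, -5.94 for Lypd3, -4.25 for Atp6v0c, -5.69 for Atpbd4, -1.83 for Ctnnd1 and -3.54 for Slco4a1. For others of the 15 highest, it was -3.17 for Gm13103, -3.37 for Rln3, -2.47 for Slc9a3r1, -3.41 for Gm12633, -1.92 for Ndc80 and -2.65 for Arg2. Among the 15 lowest, the difference was 5.64 for Bcat2, 5.41 for Dbt, 4.58 for Rpl34-ps1, 4.14 for Tex19.2, 3.45 for March7 and 2.47 for Uqcr11. For others of the 15 lowest, it was 2.82 for Ndufa1, 2.70 for Cldn4, 4.23 for H2-Aa, 3.47 for Mos, 2.52 for Ccnb1ip1, 4.44 for Hba-a1 and 3.81 for Beta-s. For the cell cycle the difference was 1.01 for Mapk3, -1.37 for Ensa, -1.10 for Aurka, -1.12 for Cdc25a, -2.29 for Cdk1 and 1.71 for Pttg1. For egg activation and the egg surface the difference was 0.63 for Ppp3r1, -1.69 for Orai1, 2.14 for Astl, -1.34 for Folr4, 0.93 for Zp2 and 1.02 for Zp3. For oocyte signals and maternal factors the difference was 2.41 for Gdf9, 0.67 for Bmp15, -0.72 for Oosp1, -0.97 for Zfp57, 2.04 for Khdc3, -2.50 for Ooep, 0.68 for Dppa3, -1.17 for Nlrp9b and -0.88 for Pou5f1. For mRNA decay and storage the difference was -0.77 for Btg4, 2.14 for Btg1, -1.09 for Rqcd1, 0.84 for Cnot6l, -1.47 for Pabpn1, 3.04 for Pabpn1l, 0.79 for Lsm14b and -0.82 for Ybx2. For ribosomes, mitochondria and translation the difference was 0.87 for Rpl32, 1.13 for Rps27l, 1.52 for Atp5c1, 0.79 for Cox6c, 1.51 for Ndufb8 and -1.67 for Eif2s1. For the proteasome the difference was 2.40 for Psma5, 1.13 for Psmb3 and -1.68 for Psmd6. For replication and chromatin the difference was -1.58 for Orc1, -0.70 for Mcm5, -0.63 for Pcna, 1.71 for H3f3a, -0.66 for Eed, 1.52 for H1foo and 1.35 for Hist1h4h. For the remaining genes the difference was -1.11 for Obox2, 1.22 for Sf3b5, 2.13 for Kpna7, -1.02 for Ranbp3, -1.21 for Birc5, 1.01 for Ptx3 and -2.71 for S100a8. The values for Slc14a1 and S100a8, listed at 0 in wild-type MII libraries, and for Ptx3, listed at 0 in wild-type zygote libraries, depend on the added 1 FPKM.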

How the results depend on the processing

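The counts of genes passing the threshold moved with scaling, spread and libraries. As deposited, 2521 genes were higher, 985 were lower and 1503 differed between genotypes. Higher genes numbered 1548 after median-of-ratios scaling, 1488 after quantile normalization, 767 in a fit on the 4 libraries alone, which leaves 2 residual degrees of freedom, and 1406 to 1819 with a library left out. Lower genes numbered 394 in the fit on the 4 libraries and 609 to 834 with a library left out. The smallest counts, 1406 and 609, came without zygote library 2. Genes differing between genotypes numbered 959 to 1202 with a library left out. In those fits the lone library is assumed to vary like the other groups. None of the 127 named genes past the threshold reversed direction under any of the 15 alternatives that tested them. Medians of some gene groups did change sign. With the length correction, that of oxidative phosphorylation genes went from -0.22 to 0.10 and that of canonical histones from -0.30 to 0.09.

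Of 127 named genes past the threshold, 76 passed under every one of the 15 alternatives that tested them. Leaving aside the fit on the 4 libraries, which lost 47, this held for 105. A few named genes fell below the filter at 5 FPKM or had no transcript length for the length correction, and were not tested there. Losses in the fit on the 4 libraries are not stated for every gene named above. With the replicate number as a block, 2650 genes were higher, 1036 lower and 1602 differed between genotypes. The deviations of same-numbered MII and zygote libraries had r = 0.06 in wild type and r = 0.123 in libraries labelled Btg4-/-. No label ties the numbers to a shared animal or batch, and they were not taken to pair the samples. The depth of 3910000 to 5070000 fragments and 2 libraries per group limit what can be detected among low genes.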
